A study of Rattus norvegicus with 10 samples.

Results

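The miRNAs described here are miR-208a, miR-208b and miR-499, which lie inside introns of 3 myosin heavy chain genes and are made mainly in striated muscle. Both arms of each precursor were taken by name from the chip, which gave 6 miRNAs of the 761 on the array: rno-miR-208a-3p (MIMAT0000880), rno-miR-208a-5p (MIMAT0017155), rno-miR-208b-3p (MIMAT0017845), rno-miR-208b-5p (MIMAT0017844), rno-miR-499-5p (MIMAT0003381) and rno-miR-499-3p (MIMAT0017227). The rule that chose them used names and no measured value, though earlier results of these data were known when it was set. Left ventricular RNA came from male Wistar rats without a genetic modification named in the labels, and their age was not given in the sources used here. In the Control group (n = 5) the rats were given saline, and in the DEX group (n = 5) they were given dexmedetomidine, an agonist of alpha-2 adrenoceptors used for sedation, for 30 min. The miRNA array addressed which miRNAs differed in the heart after DEX and before any ischemia. Each rat had 1 array with 1 spot per miRNA, and no source used here says that rats were pooled.

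A mature miRNA guides the silencing complex to messenger RNAs, mainly through its seed, bases 2 to 8 from the 5′ end, and either arm of the hairpin precursor can be loaded. *Myh6* encodes the fast alpha-myosin heavy chain, which is the main form in the ventricle of adult rats and mice, *Myh7* encodes the slow beta form that rises under cardiac stress and in hypothyroidism, and *Myh7b* encodes a related myosin. In mice, miR-208a from the *Myh6* intron is known to take part in the control of *Myh7* and *Myh7b* together with the miRNAs within them, and miR-208a-3p, miR-208b-3p and miR-499-5p are used as blood markers of heart muscle injury.

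The mature sequences are shown because the 3p arms of miR-208a and miR-208b and the 5p arm of miR-499 resemble each other in the seed, which is printed in capitals. They are the RefSeq sequences of the GRCr8 assembly, and all 6 names matched.
rno-miR-208a-3p: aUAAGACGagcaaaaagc
rno-miR-208b-3p: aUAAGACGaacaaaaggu
rno-miR-499-5p: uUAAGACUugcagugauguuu
rno-miR-208a-5p: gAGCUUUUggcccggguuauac
rno-miR-208b-5p: aAGCUUUUugcucgcguuau
rno-miR-499-3p: aACAUCACagcaagucugugcu

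The 3p arms of miR-208a and miR-208b had the same seed, UAAGACG. The seed of miR-499-5p, UAAGACU, shared bases 2 to 7 with them, and no other of the 685 array miRNAs with a RefSeq mature sequence had these bases. The 5p arms of miR-208a and miR-208b shared the seed AGCUUUU with each other and with no other of these miRNAs, and the seed of miR-499-3p, ACAUCAC, was found in none of them. Along the 18 bases of miR-208a-3p and miR-208b-3p, 15 were identical, and the differences were G10A, A16G and C18U, counted from the 5′ end with the base of miR-208a-3p first. The 5p arms were identical at 16 of 20 aligned bases and differed by G1A, G9U, C12U and G15C, with the base of miR-208a-5p first. How far the spot of either miR-208 miRNA also captured the other's RNA was not tested.

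The hairpins are shown to place the arms, which are printed in capitals. By the RefSeq annotation Mir208a lies in *Myh6*, Mir208b in *Myh7* and Mir499a in *Myh7b*, each on the strand of its host gene.
Mir208a: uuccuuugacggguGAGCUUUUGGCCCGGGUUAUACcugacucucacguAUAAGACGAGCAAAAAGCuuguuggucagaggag
Mir208b: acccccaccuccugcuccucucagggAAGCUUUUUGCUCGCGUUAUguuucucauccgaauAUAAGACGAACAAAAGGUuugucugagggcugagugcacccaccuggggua
Mir499a: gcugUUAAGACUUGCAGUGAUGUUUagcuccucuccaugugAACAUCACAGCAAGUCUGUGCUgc

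The Mir208a hairpin is at chr15:32395552-32395634 on the minus strand of GRCr8 and the Mir208b hairpin at chr15:32421615-32421726 on the same strand. The Mir499a hairpin is at chr3:164570612-164570676 on the plus strand.

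Between 483 and 533 of the 761 miRNAs were detected per array, 405 on all 10 arrays and 126 on none. Signals are given in arbitrary units after the mean of the blank spots was subtracted and each array was scaled to a median of 25 over its own detected miRNAs, and a miRNA not detected on an array took the smallest signal detected there, a floor between 3.64 and 5.09. DEX 1 was the dimmest array, with a median signal over the blank spots of 17.3 against 35.4 to 53.5 on the others. Slide was inferred from the names of the deposited scans, with arrays sharing a code taken as 1 slide. Slide and group were entangled. Slide 1 held Control 1 to 4, slide 2 held Control 5 and DEX 1 to 3, and slide 3 held DEX 4 and 5. On slide 3, spots without a probe were raised over the blank mean by 37.7 and 28.8 units of intensity, against -0.797 to 10.2 on the other arrays. Since this is bulk tissue, fewer heart muscle cells and less of a miRNA per cell cannot be told apart.

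For none of the 5 detected arms did a difference between the DEX and Control groups pass the test, and the values of the groups overlapped for each. These 5 miRNAs were detected on all 10 arrays, as were 80.5% of the 503 miRNAs tested, while miR-208b-5p was detected on none. By limma, 0 of the 5 and 0 of the 503 tested miRNAs (0%) had an adjusted p under 0.05. At an unadjusted p under 0.05, limma gave 15 of the 503 (2.98%), 7 higher (1.39%) and 8 lower (1.59%) in the DEX group, and 0 of the 5. The rule in the methods is an unadjusted p under 0.05 with a 1.5-fold change. Applied to the scaled log2 signals used here, and not to the authors' processed score, it gave 8 of the 503 (1.59%) and 0 of the 5. Groups did not overlap for 3 of the 503 miRNAs (0.596%), 1 higher (0.199%) and 2 lower (0.398%) in the DEX group, against 0 of the 5 arms. All 5 arms had a higher mean log2 signal in the DEX group, as did 59.2% of the miRNAs tested, with a median log2 difference of 0.18 for the 5 arms and 0.04 for all tested miRNAs. With slide as a fixed term in the fit, 4 of the 5 arms were lower in the DEX group, as were 75.1% of the tested miRNAs.

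**Figure D1:**
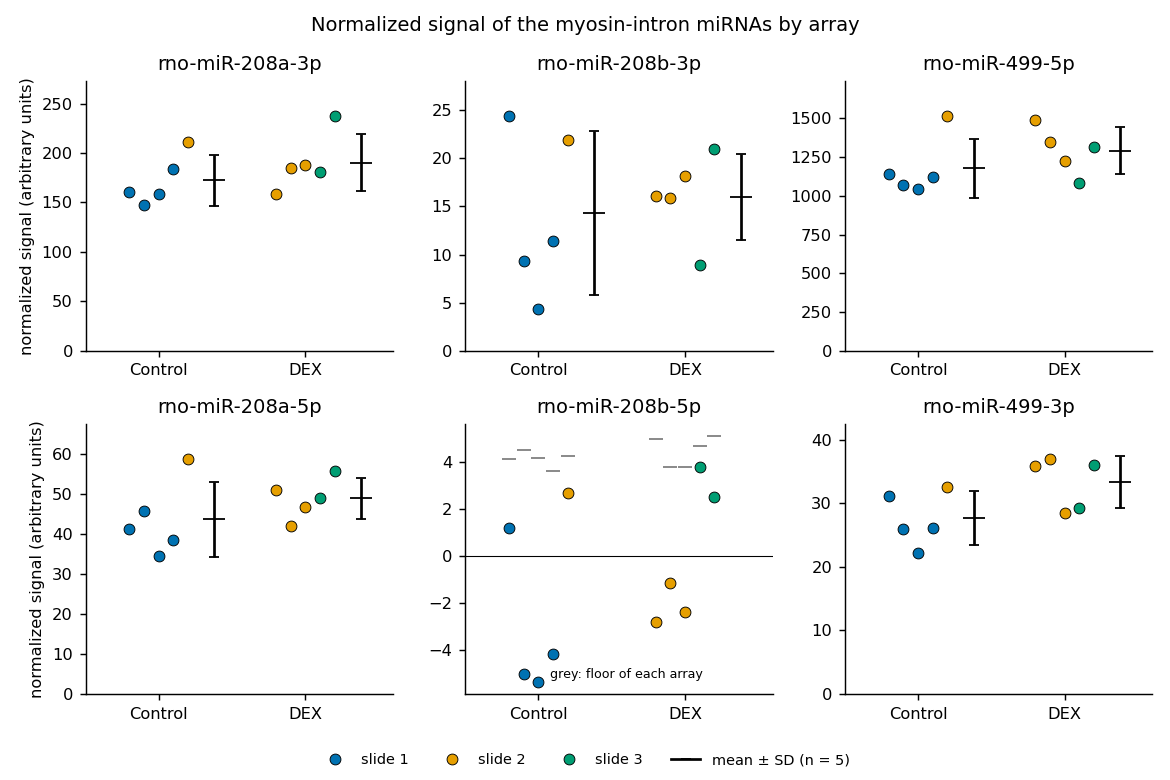
Normalized signal (arbitrary units, vertical axis) of the 6 myosin-intron miRNAs on each array, by group, with points coloured by slide and bars giving the mean ± SD of 5 arrays. The groups overlap in the 5 panels of detected miRNAs, miR-208b-3p spans from 4.37 to 24.4, and miR-208b-5p lies below the floor (grey marks) on every array.

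MiR-208a-3p is the arm of miR-208a that is usually loaded. Its normalized signal was 160.8, 147.2, 158.1, 184.3 and 211.5 on Control 1 to 5 and 158.9, 185.0, 188.1, 180.9 and 237.3 on DEX 1 to 5. Control 5 and DEX 5 were the highest of their groups, and the remaining DEX arrays lay within the range of the Control group. The mean was 190 ± 28.8 in the DEX group vs. 172 ± 25.7 in the Control group (SD, n = 5 each), a log2 difference of 0.14 ± 0.15 (SE; 95% confidence interval, -0.19 to 0.47; limma adjusted p = 0.906; two-sided exact permutation p = 0.302). In fold terms the interval ran from 0.877 to 1.39. With slide as a fixed term the difference was -0.26 ± 0.26, which is also the comparison of DEX 1 to 3 with Control 5 on slide 2. The median of all tested miRNAs under that fit was -0.19.

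MiR-208a-5p comes from the other arm of the same hairpin. Its signal was 41.2, 45.6, 34.3, 38.3 and 58.5 in the Control group and 51.0, 41.9, 46.8, 48.9 and 55.7 in the DEX group. Every DEX array was above the Control median, yet the highest value of all belonged to Control 5. The mean was 48.9 ± 5.11 in the DEX group vs. 43.6 ± 9.31 in the Control group (SD, n = 5 each), a log2 difference of 0.18 ± 0.16 (SE; 95% confidence interval, -0.17 to 0.53; limma adjusted p = 0.906; two-sided exact permutation p = 0.246). It was -0.33 ± 0.25 with slide as a fixed term.

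MiR-499-5p is the main arm of miR-499. Its signal was 1140, 1068, 1043, 1119 and 1514 in the Control group and 1488, 1347, 1225, 1083 and 1315 in the DEX group. Control 1 to 4 lay close together and Control 5 stood above them and above every DEX array. The mean was 1292 ± 150 in the DEX group vs. 1177 ± 192 in the Control group (SD, n = 5 each), a log2 difference of 0.14 ± 0.15 (SE; 95% confidence interval, -0.18 to 0.46; limma adjusted p = 0.906; two-sided exact permutation p = 0.302). Without Control 5 the difference was 0.23, and with slide as a fixed term it was -0.17 ± 0.24. The scanner's local background column exceeded the spot itself on 4 arrays for this bright miRNA, and that column was not subtracted.

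MiR-499-3p, the other arm of the miR-499 hairpin, had the smallest p among the 5 arms. Its signal was 31.2, 26.0, 22.2, 26.2 and 32.6 in the Control group and 35.9, 36.9, 28.5, 29.2 and 36.1 in the DEX group. DEX 1, DEX 2 and DEX 5 were above all Control arrays, and DEX 3 and DEX 4 lay within the Control range. The mean was 33.3 ± 4.09 in the DEX group vs. 27.6 ± 4.22 in the Control group (SD, n = 5 each), a log2 difference of 0.27 ± 0.15 (SE; 95% confidence interval, -0.05 to 0.60; limma unadjusted p = 0.0916, adjusted p = 0.906; two-sided exact permutation p = 0.0635). The smallest p that the exact permutation test allows with 5 against 5 arrays is 0.00794. With slide as a fixed term the difference was 0.04 ± 0.28.

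MiR-208b-3p, from the *Myh7* intron, was the dimmest of the detected arms relative to the floor and the most variable. Its signal was 24.4, 9.38, 4.37, 11.4 and 22.0 in the Control group and 16.1, 15.9, 18.2, 8.90 and 21.0 in the DEX group. Control 3 was barely above the floor of its array, at 1.04 times it, while Control 1 was at 5.90 times its floor. On DEX 4 the miR-208b-3p spot lay 19.1 units of intensity over the blank mean, below the median of 37.7 units for spots without a probe. The mean was 16 ± 4.47 in the DEX group vs. 14.3 ± 8.54 in the Control group (SD, n = 5 each), a log2 difference of 0.36 ± 0.41 (SE; 95% confidence interval, -0.53 to 1.25; limma adjusted p = 0.906; two-sided exact permutation p = 0.508). In fold terms the interval ran from 0.691 to 2.38, the widest of the 5 arms. Without Control 3 the difference was -0.01, and with slide as a fixed term it was -0.40 ± 0.73.

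The spread of miR-208b-3p within groups, an SD of 0.79 on the log2 scale (95% interval, 0.53 to 1.51, assuming normal values), was larger than that of each of the 100 tested miRNAs nearest to it in mean signal, whose median was 0.36 and highest 0.71. The SD of miR-208b-3p was 1.01 in the Control group and 0.47 in the DEX group, and 0.79 is pooled over both. Of all 503 tested miRNAs, 4 had a larger pooled spread. The spread was 0.73 in the deposited score, where 1 of the 100 had a larger one. Without Control 3 it was 0.57, and 7 of the 100 and 43 of the 503 had a larger one. Without Control 1 it was 0.72, with 1 of the 100 and 12 of the 503 above it. The other 4 arms had SDs of 0.20 to 0.23, below the median among tested miRNAs of middle signal (0.29, for miR-208a-5p and miR-499-3p) or of bright signal (0.22, for miR-208a-3p and miR-499-5p), the tested miRNAs being ranked by signal and divided into 3 classes.

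MiR-208b-5p was detected on 0 of 10 arrays and was not tested. Its spot lay above the blank mean on 4 arrays and at or below it on 6, from -2.60 to 1.65 SDs of the blank spots. Since the level needed for detection is set by the blank spots and not by a count of molecules, no upper limit in copies can be given.

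**Figure D2:**
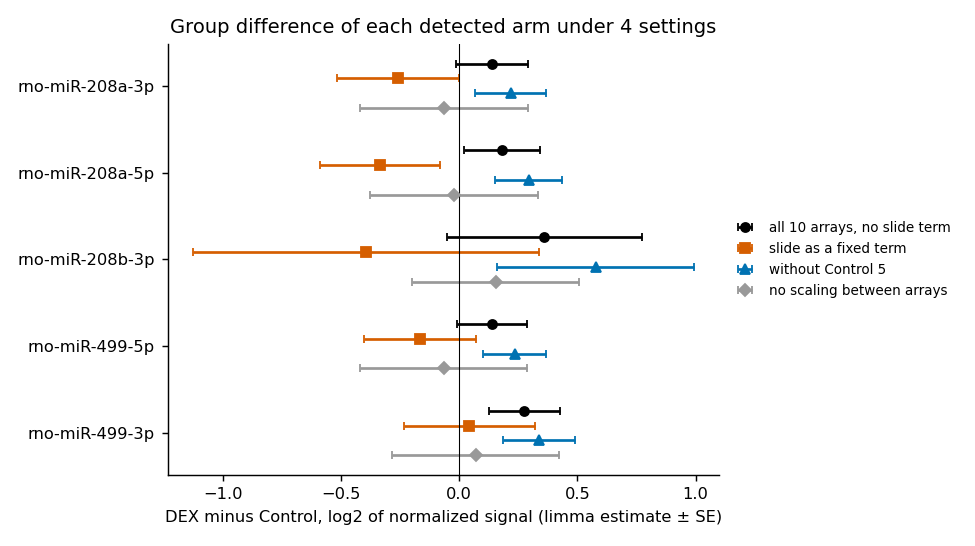
Log2 difference between the DEX and Control groups (horizontal axis, limma estimate ± SE) for the 5 detected arms under 4 settings: all 10 arrays, slide as a fixed term, without Control 5, and without scaling between arrays. The slide term moves each estimate down and turns 4 of the 5 below 0, leaving out Control 5 moves each up.

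**Figure D3:**
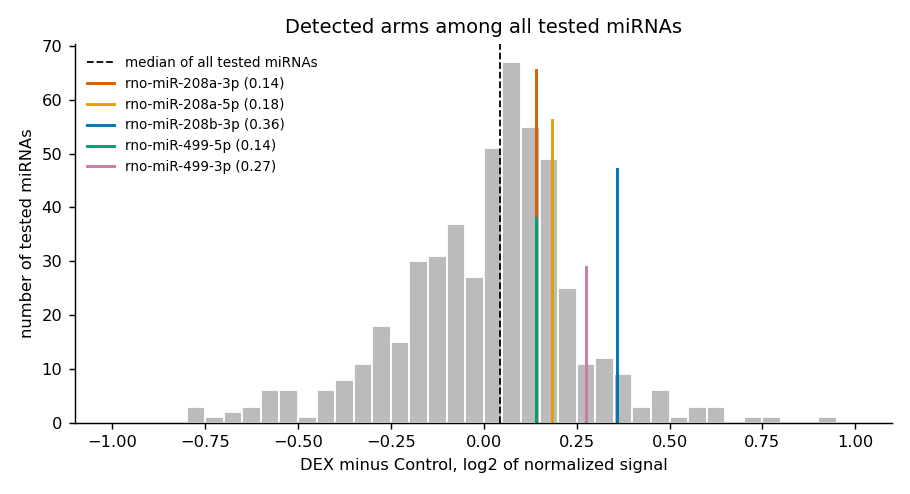
Histogram of the log2 difference between the DEX and Control groups over the 503 tested miRNAs, with coloured lines at the 5 detected arms and a dashed line at the median of all tested miRNAs, 0.04. Line heights differ only to keep the lines apart. The lines lie between 0.14 and 0.36, above that median and inside the range of all tested miRNAs.

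Ratios between arms on the same array do not depend on the scaling of that array, and were compared between arrays only, as the spots differ in how well they capture RNA. The log2 ratio of miR-208b-3p to miR-208a-3p, the miRNAs of the beta- and alpha-myosin genes, was -2.72, -3.97, -5.18, -4.02 and -3.27 in the Control group and -3.31, -3.54, -3.37, -4.34 and -3.50 in the DEX group. The lowest and the highest were both Control arrays, so the DEX values fell inside the Control range. The mean was -3.61 ± 0.42 in the DEX group and -3.83 ± 0.92 in the Control group (SD, n = 5 each), a difference of 0.22. On slide 2 alone, the DEX mean was -3.41 and Control 5 was at -3.27, a difference of -0.14.

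The ratio of miR-208b-3p to miR-499-5p averaged -6.38 ± 0.38 in the DEX group and -6.60 ± 0.88 in the Control group (SD, n = 5 each). Both ratios differed between the groups by less than the SD within either group, but with normexp the ratio to miR-499-5p differed by -0.49 in place of 0.22. Without Control 3 the differences were -0.12 for the ratio to miR-208a-3p and -0.10 for the ratio to miR-499-5p, and without Control 1 they were 0.50 and 0.48. Leaving out any other single array kept them between these values and above 0.

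The ratios without miR-208b were narrower, most clearly in the Control group. The log2 ratio of miR-499-5p to miR-208a-3p was 2.77 ± 0.29 in the DEX group and 2.77 ± 0.11 in the Control group (SD, n = 5 each), and all 10 arrays lay between 2.47 and 3.23. For the arms of 1 hairpin, the ratio of miR-208a-5p to miR-208a-3p was -1.95 ± 0.20 in the DEX group and -1.995 ± 0.24 in the Control group, and the ratio of miR-499-3p to miR-499-5p was -5.28 ± 0.11 and -5.41 ± 0.15. With normexp, which subtracts the scanner's local background, the DEX minus Control difference was 0.56 for miR-499-5p to miR-208a-3p and -0.53 for miR-499-3p to miR-499-5p, against -0.00062 and 0.14 without it. The groups overlapped in each of these ratios, and no test was made of them.

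**Figure D4:**
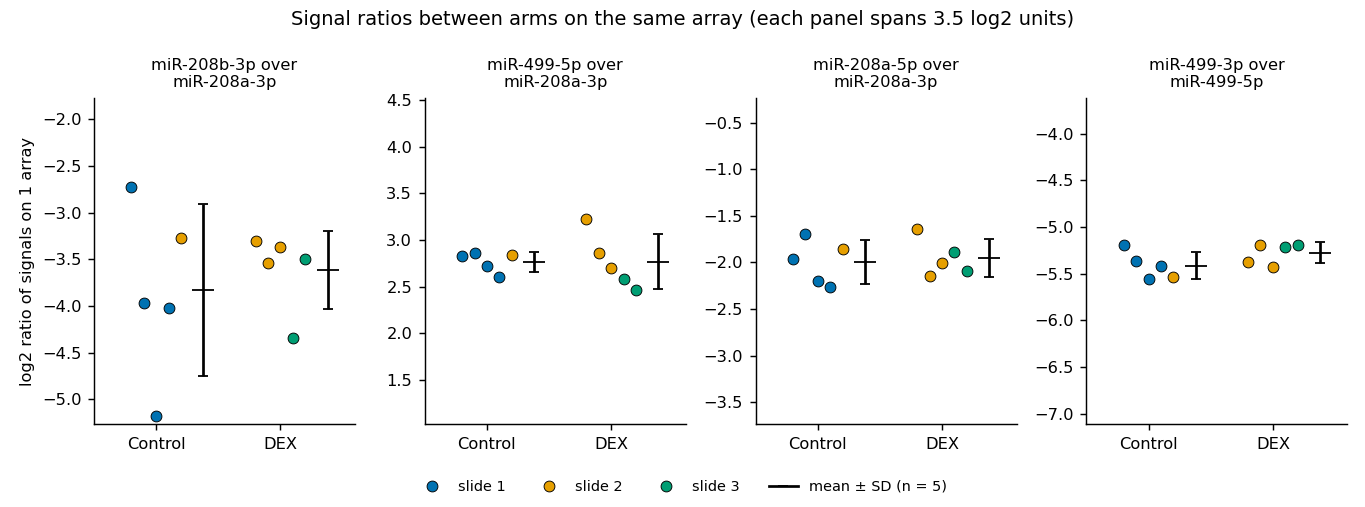
Log2 ratio of the signals of 2 arms on the same array (vertical axis, every panel spanning the same range) by group, with points coloured by slide and bars giving the mean ± SD of 5 arrays. The ratio of miR-208b-3p to miR-208a-3p spreads from -5.18 to -2.72, while the other 3 ratios stay within narrower bands in both groups.

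Over the 10 arrays, the arms of miR-499 varied together, with Pearson's r = 0.80 (permutation p = 0.0061, adjusted over 10 pairs of arms 0.0347) and Spearman's rho = 0.83 (permutation p = 0.00485, adjusted 0.0485). The value of r was 0.88 without the 2 arrays farthest from the median of miR-499-5p, and 0.78 after the group means were removed. In the deposited score it was lower, at 0.70. MiR-208b-3p and miR-499-3p had r = 0.78 (permutation p = 0.00695, adjusted 0.0347) but rho = 0.58 (permutation p = 0.0879, adjusted 0.121). Their r fell to 0.60 without the 2 farthest arrays and to 0.70 in the deposited score. The arms of miR-208a had r = 0.57 (permutation p = 0.0822, adjusted 0.117) and rho = 0.53 (permutation p = 0.122, adjusted 0.136). The other pairs had r between 0.48 and 0.69, with adjusted permutation p of 0.0774 to 0.163, and each r was lower, from 0.12 to 0.50, without the 2 farthest arrays and from 0.23 to 0.53 in the deposited score. Arrays share their scaling and floor, the median r over all pairs of the 405 miRNAs detected on every array was 0.253 and the median r of each arm to the 404 others was 0.26 (miR-208a-3p), 0.49 (miR-208a-5p), 0.41 (miR-208b-3p), 0.38 (miR-499-5p) and 0.43 (miR-499-3p), and no slide held the 6 arrays needed to give r within it.

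The 3 miRNAs whose log2 signal followed each arm most closely over the 10 arrays were taken from the 404 others detected on every array, and their r is a description only. For miR-208a-3p they were miR-206-3p (r = 0.90), miR-3593-3p (0.878) and miR-296-5p (0.833), and for miR-208a-5p miR-30e-3p (0.918), miR-320-3p (0.905) and miR-540-5p (0.901). For miR-208b-3p they were miR-30a-3p (0.883), miR-27a-3p (0.867) and miR-29a-3p (0.858). For miR-499-5p they were miR-130a-3p (0.954), miR-148a-3p (0.939) and the spot shared by miR-3084a-3p, miR-3084b-3p and miR-3084d (0.906), and for miR-499-3p miR-221-3p (0.914), miR-29a-3p (0.911) and miR-30e-5p (0.910). No myosin-intron miRNA was among the closest 3 of another.

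Other muscle miRNAs, the miR-1 and miR-133 family with miR-206 and miR-486, showed no called difference either. Of 9 listed, 7 were tested, 6 had a higher and 1 a lower mean log2 signal in the DEX group, and 0 were called by limma, with a median log2 difference of 0.08 and a range from -0.01 to 0.16. MiR-206-5p was detected on no array and miR-133b-5p on 4 arrays. MiR-1-3p, an abundant regulator of muscle growth, had a signal of 8399 ± 1555 in the DEX group vs. 7563 ± 1645 in the Control group (SD, n = 5 each), and miR-206-3p, which has the same bases 2 to 8 as miR-1-3p (GGAAUGU), had 362 ± 45.9 vs. 340 ± 37.9. The summed signal of the list ran from 50523 to 74227 in the Control group and from 50812 to 70869 in the DEX group.

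Markers of the other cells of the ventricle were measured beside the myosin-intron miRNAs, and 0 of them were called by limma. Of 7 blood cell miRNAs 6 were tested, 4 higher and 2 lower in the DEX group, with summed signals of 1213 to 1686 in the Control group and 1065 to 1876 in the DEX group. The lower ones are made in red cells, and their log2 differences were -0.75 for miR-144-3p and -0.59 for miR-451-5p, but miR-486, which red cells make too and which is counted above with the muscle miRNAs, had 0.02 (limma adjusted p = 0.906, 0.906 and 0.974). The 2 endothelial miRNAs (4360 to 5783 vs. 4370 to 6739), the 3 smooth muscle miRNAs (2443 to 3737 vs. 2671 to 3877) and the 4 fibroblast miRNAs (994 to 1771 vs. 1251 to 2405) had overlapping sums in the Control and DEX groups. The endothelial and smooth muscle miRNAs all had a higher mean log2 signal in the DEX group, as did 3 of the 4 fibroblast miRNAs, beside 59.2% of all tested miRNAs. Their part in the values of the myosin-intron miRNAs was not tested.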

How the data were processed

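Left ventricular RNA of 5 Control and 5 DEX rats was labelled with Cy5 and hybridized to a 3D-Gene chip. The labels name an RNeasy mini kit for the extraction and the methods a miRNeasy kit. Per the file headers, the deposited scanner files hold spot intensities (medians over pixels, 635 nm) merged from 3 gain settings, with no background removed. The second deposited table holds the authors' processed score: 99.98% of 5038 values lay within 0.51 of the spot minus the blank mean, scaled to a median of 25 across the 405 miRNAs scored on all arrays. The software versions behind it are not given in the sources used here.

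From the intensities, a blank-spot mean was subtracted, with 5% of the blanks trimmed from either end. A miRNA counted as detected where the deposited score had a value. Each array was scaled to a median of 25 over its detected miRNAs, undetected miRNAs were set to the floor, and log2 was taken. Bad spots were left missing. Of the miRNAs, 503 were detected on 5 or more arrays and entered the two-sided limma fit (lmFit, then eBayes with no trend; version 3.58.1, R 4.3.3), and p-values were adjusted over all 503 by Benjamini-Hochberg with a threshold of 0.05. Permutation tests used scipy 1.17.1 in Python 3.11.15, exact for group differences and with 100000 resamples for correlations. The fit was tested on simulated independent arrays without a slide effect, so that this test does not bear on the entangled slides and groups. Precision is limited by the number of arrays. The p-values set group differences against the spread between these arrays, which may hold both rat and slide differences. Each array was taken as 1 rat from its label.

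The members, the lists and the naming rule were chosen with earlier results of these data known. The text names the 6 members, for each detected member the 3 miRNAs with the highest r to it, any array miRNA that shares bases 2 to 7 with miR-208a-3p or miR-499-5p, and the other muscle miRNAs. The red cell miRNAs were named after their values were seen. Alternatives covered the background correction (normexp with an offset of 50), scaling, floor, detection filter, the deposited score, the methods' t-test, slide, replicate block and leaving out arrays. Equal replicate numbers gave no sign of a pairing: deviations from the group means correlated by -0.081 to 0.110 between arrays of the same number.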

Additional observations from a re-analysis of the deposited data

Results flagged for a closer look

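In the Control group the log2 signal of miR-499-5p was 10.56 on Control 5 and between 10.03 and 10.16 on the other 4 arrays, so that the gap took up 0.762 of the range, above the critical value of 0.71 for 5 arrays. Control 5 is also the 1 Control array on slide 2, and the part of the slide in its value cannot be told apart from that of the rat. The log2 ratio of miR-208b-3p to miR-208a-3p was -4.34 on DEX 4 and between -3.54 and -3.31 on the other DEX arrays, a gap of 0.773 of the range. On DEX 4 miR-208b-3p was at 1.91 times the floor. Its spot lay 19.1 units of intensity over the blank mean there, below the median of 37.7 units for spots without a probe. The part of the floor and of this raised background in the ratio was not tested. Of 20 groups of 5 arrays examined, 2 stood out in this way, where chance gives about 1 in 20.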

How the results depend on the processing

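Each of the 5 detected arms was recomputed under 30 alternatives, and in none of the 29 with a test did an adjusted p fall under 0.05 (0.506 to 0.998 over the arms). The direction was kept in 26 for miR-208a-3p, 27 for miR-208a-5p, 26 for miR-208b-3p, 27 for miR-499-5p and 29 for miR-499-3p. With slide as a fixed term, and in the same way within slide 2, it turned for miR-208a-3p (-0.26), miR-208a-5p (-0.33), miR-208b-3p (-0.40) and miR-499-5p (-0.17), while 75.1% of all tested miRNAs were lower in the DEX group under that fit. Without scaling it turned for miR-208a-3p (-0.065), miR-208a-5p (-0.023) and miR-499-5p (-0.066), where the median of all tested miRNAs was -0.16. With normexp it turned for miR-208a-3p (-0.070), miR-208b-3p (-0.0039) and miR-499-3p (-0.039), while miR-499-5p moved to 0.49 ± 1.07, and without Control 3 for miR-208b-3p (-0.0050). Without background correction the differences shrank to between 0.041 (miR-499-5p and miR-208b-3p) and 0.065 (miR-499-3p). With quantile normalization miR-208a-3p was at 0.027 and miR-499-5p at 0.034, while miR-208a-5p (0.18), miR-208b-3p (0.38) and miR-499-3p (0.32) did not shrink. Scaling to the 75th percentile gave 0.031 (miR-499-5p) to 0.25 (miR-208b-3p), where the median of all tested miRNAs was -0.064. Leaving out 1 array at a time gave 0.057 to 0.22 for miR-208a-3p, 0.10 to 0.29 for miR-208a-5p, -0.01 to 0.62 for miR-208b-3p, 0.087 to 0.23 for miR-499-5p and 0.20 to 0.34 for miR-499-3p. The unadjusted limma p of miR-499-3p was under 0.05 in 5 of 29 tests, the lowest 0.00604 with quantile normalization. The others were scaling to the miRNAs detected on every array, the deposited score, the replicate block and leaving out Control 5. In these 5 settings 30 to 36 of the 503 tested miRNAs had an unadjusted p under 0.05, against 15 in the main fit. The number of miRNAs called was 0 except under the t-test rule of the methods, applied to the scaled log2 signals. That rule gave 8 without adjustment and 0 after Benjamini-Hochberg. With the replicate block, for which no sign of a pairing was seen, 0 were called and the differences stayed at 0.14, 0.18, 0.36, 0.14 and 0.27. The median of the other muscle miRNAs was -0.31 with slide as a fixed term, and that of the smooth muscle miRNAs -0.26 with it and -0.089 with normexp. The settings without both arrays of slide 3, and those for the spread of miR-208b-3p, were added after seeing the data. The cause of these shifts was not tested.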

Other observations

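Opposite the miR-208a hairpin, RefSeq places rno-miR-3546 (MIMAT0017801) at chr15:32395601-32395622 on the plus strand of GRCr8, and it was chosen after its values were seen. In its sequence the 20 bases printed in capitals lie opposite miR-208a-5p.
rno-miR-3546: AUAACCCGGGCCAAAAGCUCac

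The spot was detected on all 10 arrays near the floor, at 1.17 to 2.69 times it. Its signal was 8.78 ± 2.78 in the DEX group and 9.46 ± 3.02 in the Control group (SD, n = 5 each), so that the log2 signal differed by -0.09 ± 0.30 (SE; adjusted p = 0.954 by limma) and the groups overlapped.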
